A study of Mus musculus with 16 samples.

Results

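The 10 genes described here belong to prostaglandin synthesis, signalling and breakdown, and were followed across 16 RNA-seq libraries of mGF (gingival fibroblasts of the mouse, the matrix-producing cells of the gum). They were chosen by symbol, and all 10 were found among the 56941 genes of the count table: the cyclooxygenases Ptgs1 and Ptgs2, the prostaglandin E synthases Ptges, Ptges2 and Ptges3, the prostacyclin synthase Ptgis, the receptors Ptgfr, Ptger2 and Ptger4, and the catabolic dehydrogenase Hpgd. The mGF came from wild-type C57Bl6 mice of 3 to 6 months, from gingiva around the maxillary second molar, and were used at passages 2 to 8. For 24 h they received BSA vehicle alone (BSA (control)), IL-1β at 1 ng/mL with BSA vehicle, BSA-bound palmitate at 200 µM, or palmitate + IL-1β, with 4 libraries in each condition. The labels do not say that the libraries came from separate cultures or animals, so p-values measure the spread between these libraries, which may be technical.

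Prostaglandins are lipid messengers made from arachidonic acid, which phospholipases release from membranes. A cyclooxygenase converts it to the intermediate PGH2, Ptgs1 being the largely constitutive and Ptgs2 the inducible enzyme, and a terminal synthase then sets the product: PGE2 from the prostaglandin E synthases, prostacyclin from Ptgis. PGE2 acts on G protein-coupled receptors that include those encoded by Ptger2 and Ptger4, and PGF2α on that encoded by Ptgfr. In the inflamed gum PGE2 is known for its part in vasodilation and bone resorption.

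The promoters of Ptgs2 and Ptges are shown because these genes had the largest changes among the members of more than 1 CPM. The letters are the RefSeq entries (table of build GRCm38.p6), 250 bases before to 30 bases after the annotated start. They were placed on GRCm39 by exact match, at chr1:149975532-149975811 (plus strand) for Ptgs2 and chr2:30793280-30793559 (minus strand) for Ptges. Both windows lie inside the GENCODE vM39 gene spans given below, so the base positions hold for the RefSeq start only. Capitals mark matches to the motifs searched.
Ptgs2: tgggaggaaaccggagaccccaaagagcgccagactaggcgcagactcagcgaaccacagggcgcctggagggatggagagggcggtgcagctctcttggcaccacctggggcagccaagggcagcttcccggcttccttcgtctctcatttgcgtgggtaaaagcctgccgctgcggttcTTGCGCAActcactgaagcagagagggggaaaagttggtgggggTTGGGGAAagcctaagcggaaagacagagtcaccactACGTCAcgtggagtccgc
Ptges: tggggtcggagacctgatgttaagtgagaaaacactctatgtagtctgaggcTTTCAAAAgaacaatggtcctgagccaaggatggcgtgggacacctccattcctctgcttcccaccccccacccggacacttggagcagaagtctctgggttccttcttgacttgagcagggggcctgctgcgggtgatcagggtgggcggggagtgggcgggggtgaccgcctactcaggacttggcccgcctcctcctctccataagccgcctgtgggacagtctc

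In the Ptgs2 promoter the C/EBP motif TTNNGNAA matched at bases -69 to -62 and -25 to -18 from the start, and the cyclic AMP response core TGACGT matched on the minus strand at bases 13 to 18. In Ptges the C/EBP motif matched once, at bases -198 to -191. Both strands were searched, over the whole 300-base entries, also for TATAAA, an NF-kB motif and the EGR1 motif GCGGGGGCG, which had no match in either promoter. Of 32851 RefSeq promoters, 40.7% held TTNNGNAA, 7.51% TGACGT, 13.6% TATAAA, 4.79% the NF-kB motif and 2.91% GCGGGGGCG. Both promoters therefore shared the C/EBP letters, which are common and were also found in the promoters of Ptges2, Ptgfr, Ptger2 and Hpgd. The promoters of Ptgs2 and Ptges differed in the cyclic AMP response core. A match is a description of letters, and binding was not measured.

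The libraries held 21234789 to 92752515 counts in genes. Palmitate replicate 10 was the deepest. The precision of a low gene follows from this, since 3 counts corresponded to 0.0330 to 0.146 CPM (counts-per-million, on TMM-scaled library sizes). Of the fibroblast markers all 10 (Col1a1, Pdgfra, Dcn and others) were above 3 counts in each condition, with a summed level of 46330 to 57800 CPM. Leukocyte markers summed to 4.39 to 6.36 CPM in BSA (control) and 5.96 to 8.13 CPM in palmitate + IL-1β, with 5 to 7 of 12 above 3 counts in a library of a given condition. The leukocyte markers Adgre1, Tyrobp, Cd3e and Ms4a1 were at or under 3 counts in every library, Ptprc reached 7 counts, Itgam 5 and Fcer1g 12. The means of Cd68, Csf1r, Lyz2 and Cd14 lay at 0.547 to 3.62 CPM and did not move together. Cd14 was higher with palmitate, at 1.54 ± 0.256 CPM (SD, n = 4) in BSA (control), 1.78 ± 0.184 with IL-1β, 3.62 ± 0.583 with palmitate and 3.17 ± 0.600 with both. Lyz2 was lower, at 0.922 ± 0.290 CPM in BSA (control) and 0.547 ± 0.108 with palmitate. Csf1r stood at 1.45 ± 0.249 and 1.25 ± 0.141 CPM, and Cd68 at 1.14 ± 0.427 and 1.08 ± 0.209. Of the 4 leukocyte markers tested, 1 was higher and 1 lower with palmitate at an edgeR adjusted p under 0.05, beside 19.8% and 17.5% of all genes. Epithelial markers summed to 4.04 to 4.64 CPM in BSA (control) and 1.90 to 2.32 CPM in palmitate + IL-1β, with 4 and 2 of 8 above 3 counts and Krt8, Krt18 and Krt15 at or under 3 counts in every library. Most of these sums was the single gene Dsp, at 3.91 ± 0.328 CPM in BSA (control) and 1.78 ± 0.130 with both. The part of these marker differences in the results was not tested. In bulk RNA, fewer cells of a type and less RNA per cell cannot be told apart.

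Of the 10 genes 9, all but Hpgd, passed the filter on low counts, which kept 16306 genes. Ptger2 passed it through the treated conditions, since its BSA (control) libraries held 2 to 11 counts, so it is described by its values and left out of the counts and medians, which cover the other 8. A gene is said to rise or fall where its adjusted p was under 0.05 in edgeR's quasi-likelihood test over all genes. Against BSA (control), IL-1β raised 3 of the 8 (Ptgs2, Ptges and Ptges3) and lowered 0 (0 also at an unadjusted p under 0.05 and in DESeq2). Of all genes tested 15.1% passed, 10.1% higher and 4.97% lower.

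Palmitate raised the same 3 genes and lowered 3 (Ptgs1, Ptgis and Ptgfr), where 37.3% of all genes passed, 19.8% higher and 17.5% lower. Palmitate + IL-1β raised the same 3 and lowered the same 3, where 47.3% of all genes passed, 24.8% higher and 22.5% lower. The libraries did not overlap with those of BSA (control) for 3 of the 8 genes with IL-1β, 6 with palmitate and 6 with both, beside 17.6%, 36% and 41.5% of all genes. These comparisons share the 4 BSA (control) libraries. The median log2 fold change over the 8 genes was -0.03 with IL-1β, -0.08 with palmitate and -0.08 with palmitate + IL-1β, beside medians over all genes of -0.0049, -0.0031 and 0.0017.

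Between the treated conditions, adding palmitate to IL-1β raised 3 of the 8 (Ptgs2, Ptges and Ptges3) and lowered 3 (Ptgs1, Ptgis and Ptgfr), where 35% of all genes passed, 18.9% higher and 16.1% lower. Adding IL-1β to palmitate raised 1 (Ptgs2) and lowered 0 (0 also unadjusted and in DESeq2), where 9.81% of all genes passed, 5.71% higher and 4.1% lower. Palmitate stood above IL-1β for 2 (Ptges and Ptges3) and below it for 4 (Ptgs1, Ptgs2, Ptgis and Ptgfr), where 31.6% of all genes passed, 16.5% higher and 15.2% lower. The interaction of the agents passed for 0 of the 8 in edgeR and in DESeq2 (1, Ptges, at an unadjusted p under 0.05 in edgeR), where 1.99% of all genes passed.

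**Figure D1:**
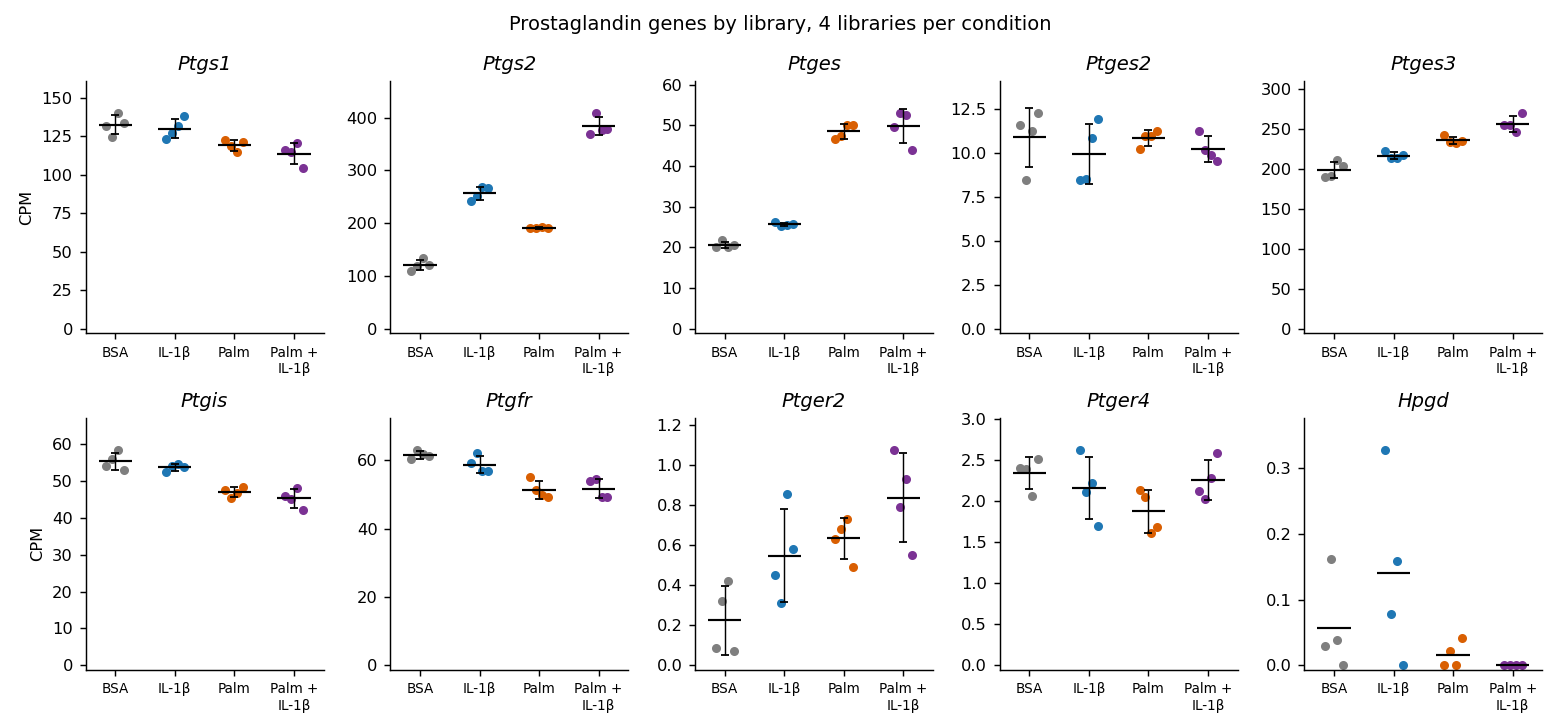
CPM of the 10 genes (y axis, starting near 0, a scale for each gene) in the 4 conditions (x axis; Palm, palmitate), with a point for each library, a line at the mean and, except for Hpgd, bars of 1 SD (n = 4). Ptgs2 stands apart in all 4 conditions, from 110.2 to 135 CPM in BSA (control) up to 370.0 to 408 CPM in palmitate + IL-1β, whereas Ptges separates by palmitate, and Ptges2 and Ptger4 overlap throughout.

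Ptgs2 (chromosome 1, 149975194 to 149983978, plus strand, GRCm39), the inducible cyclooxygenase, was raised by each agent and most by both. Its level was 110.2, 119, 135 and 120.0 CPM in the BSA (control) libraries and 243, 251, 269 and 266 CPM in the IL-1β libraries. It was 191, 191, 193 and 190.0 CPM with palmitate and 370.0, 408, 376 and 379.5 CPM with palmitate + IL-1β. The 4 conditions did not overlap in any pair, in the order BSA (control), palmitate, IL-1β, palmitate + IL-1β. The log2 fold change against BSA (control) was 1.09 (SE 0.050) with IL-1β, 0.66 (SE 0.050) with palmitate and 1.67 (SE 0.050) with both, and the adjusted p in edgeR was 2.9e-17, 1.3e-12 and 8.5e-23.

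Adding palmitate to IL-1β raised Ptgs2 by 0.58 on the log2 scale (SE 0.049, edgeR adjusted p = 3.1e-11). Adding IL-1β to palmitate raised it by 1.00 (SE 0.049, edgeR adjusted p = 6.9e-16) and ranked it at number 8 of 16306 genes by p. Palmitate alone left Ptgs2 lower than IL-1β alone, with a log2 difference of -0.43 (SE 0.049, edgeR adjusted p = 2.5e-08).

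Whether the agents combined evenly on Ptgs2 depends on the scale. On the log2 scale the interaction was -0.09 (SE 0.069, 95% interval -0.22 to 0.05, edgeR adjusted p = 0.748), and the fold of the mean CPM with both agents, 3.17, lay near the product of the single folds, 3.36. On the linear scale IL-1β added 136 ± 7.98 CPM (SE) without palmitate and 192 ± 8.55 CPM with it, a difference of 55.9 ± 11.7 CPM. If the increments had only been added, the level would have been 328 CPM, below each of the 4 palmitate + IL-1β libraries. No test was run on the linear scale.

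Ptgs1 (chromosome 2, 36120438 to 36142287, plus strand), the constitutive cyclooxygenase, changed little and in the other direction. It stood at 132, 125, 139.8 and 133 CPM in BSA (control) and at 123, 127, 131.5 and 138 CPM with IL-1β, which overlapped. It was 122, 118, 114 and 121 CPM with palmitate and 116, 114, 120.4 and 104 CPM with palmitate + IL-1β, all below the lowest BSA (control) library. Its log2 fold change was -0.15 (SE 0.047, edgeR adjusted p = 0.0095) with palmitate and -0.22 (SE 0.047, edgeR adjusted p = 2.6e-04) with both, and -0.03 (95% interval -0.12 to 0.06) with IL-1β, which did not pass (edgeR adjusted p = 0.765).

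The balance between the cyclooxygenases therefore shifted. The ratio of Ptgs2 to Ptgs1 counts inside a library, which needs no library scaling, had a mean log2 value of -0.13 in BSA (control), 0.99 with IL-1β, 0.69 with palmitate and 1.75 with palmitate + IL-1β (n = 4 each). All 6 pairs of conditions were separate, and each gave an exact two-sided permutation p of 0.0286, the smallest that 4 against 4 libraries allow (0.0429 after Benjamini-Hochberg adjustment over 12 ratio tests). Per kilobase of the canonical transcript, Ptgs1 was above Ptgs2 in BSA (control), at 46.2 ± 2.17 against 25.5 ± 2.12 CPM per kb (SD, n = 4). With palmitate the pair overlapped, at 41.51 ± 1.204 against 40.3 ± 0.283 CPM per kb. Ptgs2 was above Ptgs1 with IL-1β, at 54.2 ± 2.60 against 45.3 ± 2.203 CPM per kb, and with both agents, at 80.8 ± 3.59 against 39.7 ± 2.41 CPM per kb.

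**Figure D2:**
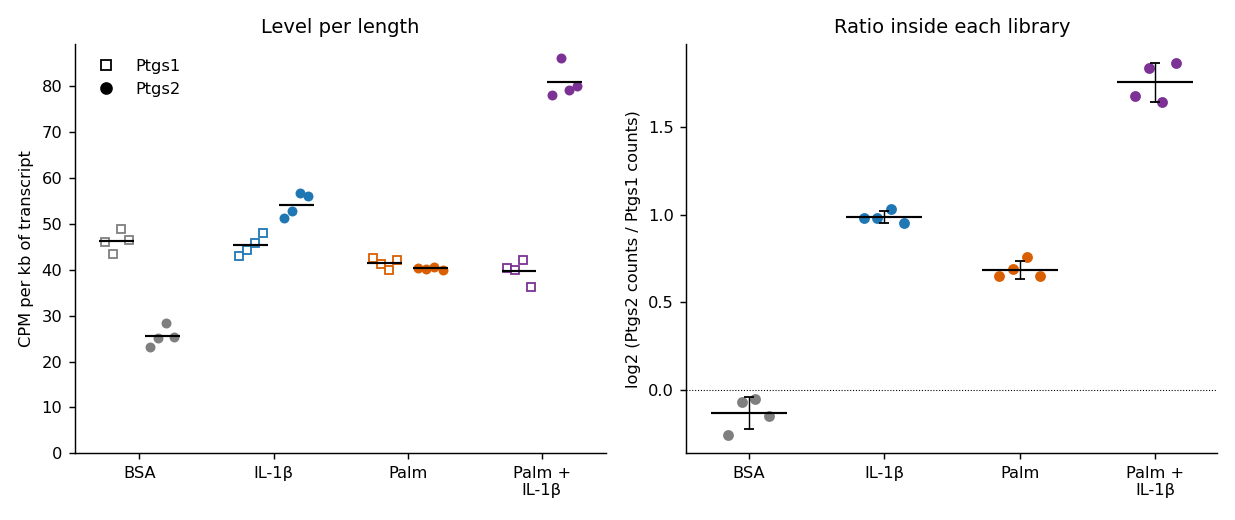
The cyclooxygenase genes in the 4 conditions (x axis; Palm, palmitate): left, level in CPM per kb of transcript (open squares Ptgs1, filled circles Ptgs2, lines at the means); right, log2 of the ratio of Ptgs2 to Ptgs1 counts in each library, with the mean and bars of 1 SD (n = 4). The mean level of Ptgs2 goes from 25.5 to 80.8 CPM per kb between BSA (control) and palmitate + IL-1β while Ptgs1 goes from 46.2 to 39.7, and the ratios of the 4 conditions do not overlap.

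Ptges (chromosome 2, 30779483 to 30820196, minus strand), the inducible microsomal prostaglandin E synthase, followed palmitate more than IL-1β. It measured 20.05, 21.7, 20.2 and 20.7 CPM in BSA (control) and 26.1, 25.2, 25.6 and 25.7 CPM with IL-1β. It measured 46.6, 47.3, 49.97 and 49.99 CPM with palmitate and 49.7, 52.9, 52.5 and 43.98 CPM with palmitate + IL-1β. The conditions were separate except that the 2 with palmitate overlapped. The log2 fold change against BSA (control) was 0.31 (SE 0.058) with IL-1β, 1.23 (SE 0.055) with palmitate and 1.27 (SE 0.055) with both, at an edgeR adjusted p of 1.9e-04, 3.7e-18 and 1.2e-18.

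Palmitate alone exceeded IL-1β alone for Ptges by 0.92 on the log2 scale (SE 0.055, edgeR adjusted p = 1.0e-14), the opposite order from Ptgs2. Adding palmitate to IL-1β raised it by 0.96 (SE 0.055, edgeR adjusted p = 3.1e-15). Adding IL-1β to palmitate changed it by 0.04 (95% interval -0.06 to 0.14), which did not pass (edgeR adjusted p = 0.724). The interaction was -0.27 (SE 0.078, 95% interval -0.43 to -0.12) with an edgeR adjusted p of 0.0636. The adjusted p ranged from 0.0384 to 0.162 over the alternatives, and passed without palmitate + IL-1β replicate 14 or 15.

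The other prostaglandin E synthases differed from Ptges. Ptges3 (chromosome 10, 127894816 to 127913141, plus strand), the cytosolic synthase also known as the HSP90 co-chaperone p23, rose in small steps. Its mean was 199.5 ± 10.1 CPM (SD, n = 4) without either agent, 217 ± 4.27 with IL-1β, 236 ± 4.69 with palmitate, and 257 ± 9.72 with both. Its libraries did not overlap between any of the conditions. Against BSA (control) its log2 fold change was 0.24 (SE 0.042, edgeR adjusted p = 1.7e-05) with palmitate and 0.37 (SE 0.042, edgeR adjusted p = 9.9e-09) with both agents. With IL-1β it was 0.12 (SE 0.042, edgeR adjusted p = 0.0482), a call lost in 18 of 22 alternatives, with adjusted p from 0.0142 to 0.218. Adding IL-1β to palmitate gave 0.12 (edgeR adjusted p = 0.0611), which did not pass. Of the Ptges3 transcript, 34.5% was shared at 95% identity or more with 2 other genes, so its counts are less certain.

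Ptges2 (chromosome 2, 32285659 to 32295786, plus strand), the membrane-associated synthase, passed in none of the 7 comparisons in edgeR or DESeq2, with an unadjusted edgeR p of at least 0.24. It stood at 8.46 to 12.3 CPM in BSA (control), 8.46 to 11.9 with IL-1β, 10.2 to 11.3 with palmitate and 9.57 to 11.3 with both. The 95% interval of its log2 change with palmitate was -0.21 to 0.20, which leaves room for changes of the size seen in Ptgs1.

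Ptgis (chromosome 2, 167033725 to 167083018, minus strand), which makes prostacyclin from the same intermediate, was lowered by palmitate. It stood at 54.0, 55.8, 58.3 and 52.8 CPM in BSA (control) and at 52.3, 54.0, 54.6 and 53.7 CPM with IL-1β. It was 47.5, 45.4, 46.6 and 48.2 CPM with palmitate and 45.8, 45.1, 48.0 and 41.99 CPM with palmitate + IL-1β. Every library with palmitate lay below every library without it. The log2 fold change was -0.24 (SE 0.046, edgeR adjusted p = 1.1e-04) with palmitate and -0.29 (SE 0.046, edgeR adjusted p = 5.4e-06) with both, and adding palmitate to IL-1β gave -0.25 (SE 0.047, edgeR adjusted p = 8.7e-05).

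Among the receptors, Ptgfr (chromosome 3, 151502139 to 151543267, minus strand), the PGF2α receptor, was the most abundant and was also lowered by palmitate. It stood at 60.4, 63.0, 61.8 and 61.3 CPM in BSA (control) and at 59.2, 62.0, 56.96 and 57.0 CPM with IL-1β. With palmitate it was 55.1, 51.4, 49.9 and 49.3 CPM and with palmitate + IL-1β 53.9, 54.6, 49.4 and 49.2 CPM, again with every palmitate library below every other. On the log2 scale the change was -0.26 (SE 0.047, edgeR adjusted p = 3.8e-05) with palmitate and -0.25 (SE 0.047, edgeR adjusted p = 5.1e-05) with both.

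Ptger2 (chromosome 14, 45225652 to 45241277, plus strand), which encodes the PGE2 receptor EP2, was near the limit of detection in BSA (control). It had 3, 10, 11 and 2 counts in BSA (control) and 11, 8, 27 and 14 with IL-1β. It had 13, 62, 20 and 12 counts with palmitate, the 62 in the deepest library, and 38, 24, 29 and 15 with both agents. In CPM these were 0.0699 to 0.419, 0.312 to 0.854, 0.493 to 0.734 and 0.552 to 1.08, so that the palmitate conditions were separate from BSA (control) and IL-1β was not. The fitted log2 difference from BSA (control) was 1.34 (SE 0.43) with IL-1β, 1.55 (SE 0.40) with palmitate and 1.94 (SE 0.39) with both, given as a description with no test.

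Ptger4 (chromosome 15, 5236142 to 5273673, minus strand), which encodes EP4, the other cyclic AMP-raising PGE2 receptor, passed in none of the 7 comparisons in edgeR or DESeq2, also at an unadjusted edgeR p under 0.05. It stood at 2.06 to 2.51 CPM in BSA (control), 1.70 to 2.62 with IL-1β, 1.61 to 2.14 with palmitate and 2.02 to 2.58 with both. The log2 fold change with palmitate was -0.31 (95% interval -0.61 to -0.0049), with an unadjusted p of 0.0556 and an adjusted p of 0.122 in edgeR. The log2 ratio of Ptger4 to Ptger2 counts had a mean of 3.62 in BSA (control), 2.01 with IL-1β, 1.54 with palmitate and 1.44 with both. These means rest on the low Ptger2 counts, and the BSA (control) libraries ranged from 2.25 to 4.86, so no test is given.

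Hpgd (chromosome 8, 56747543 to 56774082, plus strand), the dehydrogenase that inactivates PGE2, was barely detected. It had 1, 5, 1 and 0 counts in BSA (control), 8, 2, 5 and 0 with IL-1β, 0, 2, 0 and 1 with palmitate, and 0 in each of the palmitate + IL-1β libraries. These values are mostly at or under 3 counts, the limit that a count of 0 allows in a library, so no difference was detectable at this depth and no fold or test is given.

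**Figure D3:**
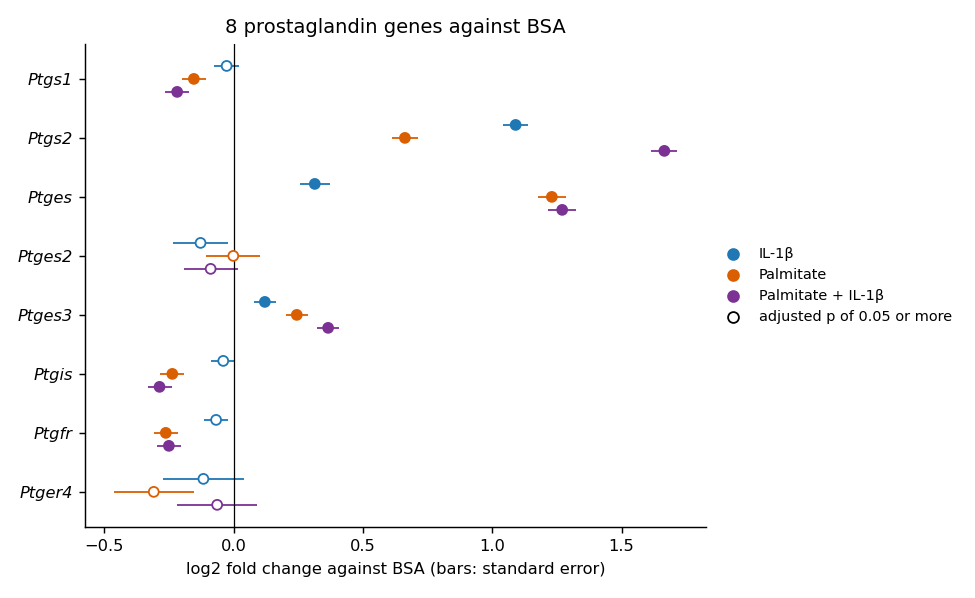
Log2 fold change against BSA (control) (x axis) of 8 genes (y axis; Ptger2 and Hpgd are not drawn) with IL-1β, palmitate and palmitate + IL-1β, with bars of 1 standard error, filled where the edgeR adjusted p was under 0.05. Ptgs2 is at 1.09, 0.66 and 1.67, Ptges at 0.31, 1.23 and 1.27, and Ptgs1, Ptgis and Ptgfr lie at -0.15 to -0.29 in the conditions with palmitate.

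Ordered by level per kilobase in BSA (control), the genes ran from Ptges3 (99.4 ± 5.01 CPM per kb; SD, n = 4) through Ptgs1 (46.2 ± 2.17), Ptgs2 (25.5 ± 2.12), Ptgis (25.1 ± 1.08), Ptgfr (9.30 ± 0.169), Ptges (5.59 ± 0.201), Ptges2 (2.09 ± 0.322) and Ptger4 (0.706 ± 0.0592) to Ptger2 (0.0611 ± 0.047) and Hpgd (0.0325 ± 0.0405). Ptgs2 and Ptgis did not differ beyond their spread, nor did Ptger2 and Hpgd. With palmitate + IL-1β, Ptgs2 stood second at 80.8 ± 3.59 CPM per kb, and Ptges, at 13.5 ± 1.12, stood above Ptgfr, at 7.82 ± 0.432.

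The rest of the pathway was read from a list of 67 other symbols, of which 65 were found and 37 tested. With IL-1β 7 rose and 3 fell (8 and 3 in DESeq2), beside 10.1% and 4.97% of all genes. With palmitate 14 rose and 11 fell (14 and 9 in DESeq2), beside 19.8% and 17.5% of all genes. With palmitate + IL-1β 15 rose and 11 fell (15 and 12 in DESeq2), beside 24.8% and 22.5%. Adding palmitate to IL-1β raised 15 and lowered 8 (14 and 9 in DESeq2), beside 18.9% and 16.1% of all genes. Adding IL-1β to palmitate raised 5 and lowered 0 in edgeR (5 at an unadjusted p under 0.05, and 1 in DESeq2), beside 5.71% and 4.1%. The median log2 change over the 37 genes was -0.01 with IL-1β, 0.10 with palmitate and 0.03 with both agents, beside -0.0049, -0.0031 and 0.0017 over all genes. Of the 37, 4 (Aloxe3, Cysltr1, Pla2g2e and Pla2g4b) had under 10 counts in some library, and the counts of genes that fell with palmitate include Cysltr1 and Pla2g2e, which were low in those libraries.

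Of the 12 tested genes of arachidonate release, palmitate raised 3 and lowered 4, beside 19.8% and 17.5% of all genes. The 4 include Pla2g2e, whose lowest library held 5 counts, so its call is not read. The BSA (control) level of Pla2g4a, the cytosolic phospholipase A2 that frees arachidonate, was 104 ± 9.89 CPM (SD, n = 4), beside 126 ± 11.7 with IL-1β, 145 ± 2.67 with palmitate and 181 ± 11.1 with both. All passed, with log2 fold changes against BSA (control) of 0.28, 0.48 and 0.80 (edgeR adjusted p = 0.0025, 8.2e-07 and 9.4e-11). Pla2g4c, a related phospholipase, was low but rose from 0.672 ± 0.0625 to 3.02 ± 0.491 CPM with palmitate (log2 2.13, SE 0.21, edgeR adjusted p = 9.2e-10), and Plaa, the phospholipase A2 activating protein, rose by 0.19 (edgeR adjusted p = 1.7e-04). Mgll, the lipase that frees arachidonate from 2-arachidonoylglycerol, fell with palmitate (log2 -0.43, SE 0.049, edgeR adjusted p = 1.9e-08).

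Genes of export, uptake and breakdown followed. Abcc4, which encodes a prostaglandin exporter, stood at 118 ± 2.97 CPM (SD, n = 4) in the BSA (control) libraries, and rose to 203 ± 4.85 with IL-1β, 269 ± 9.45 with palmitate and 361 ± 19.8 with both, with no overlap between conditions and an edgeR adjusted p of 5.6e-15, 1.9e-20 and 5.3e-24. Slco2a1, the prostaglandin uptake transporter, rose from 13.3 ± 1.29 to 18.9 ± 1.36, 39.9 ± 2.15 and 44.2 ± 3.77 CPM, with log2 fold changes of 0.50, 1.59 and 1.73 (edgeR adjusted p = 6.6e-06, 1.8e-18 and 1.4e-19). Zadh2, a prostaglandin reductase, rose by 0.25, 0.40 and 0.62, and Ptgr2, another reductase, fell with palmitate (log2 -0.20, SE 0.051, edgeR adjusted p = 0.0022). Of the 5 tested genes of transport and breakdown, 3 rose and 2 fell with palmitate (19.8% and 17.5% of all genes), and 3 rose with IL-1β (10.1%).

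Of the 7 genes listed with the other prostanoid receptors, Ptgfrn among them, only 3 were tested. Ptgir, the prostacyclin receptor, stood at 1.62 ± 0.501 CPM (SD, n = 4) without either agent and rose to 7.19 ± 0.379 with palmitate (log2 2.17, SE 0.14, edgeR adjusted p = 8.0e-14) and 8.75 ± 1.24 with both agents, while Ptgis, the enzyme that makes its ligand, was lowered in the same libraries. With IL-1β Ptgir was at 2.26 ± 0.300 CPM (log2 0.50, edgeR adjusted p = 0.0511), which did not pass there but did in 6 of 22 alternatives, DESeq2 and the fit without BSA replicate 3 among them (adjusted p from 0.0031 to 0.157). Ptger1, an EP1 receptor gene, fell with palmitate (log2 -0.33, edgeR adjusted p = 0.0098) although its libraries overlapped and the call was lost without palmitate replicate 10 (adjusted p = 0.0559), and Ptgfrn, a regulator of the PGF2α receptor, fell (log2 -0.12, edgeR adjusted p = 0.0447), a call lost in 7 alternatives.

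Of 10 tested genes for other prostanoid synthases, palmitate raised 4 and lowered 1, beside 19.8% and 17.5% of all genes. Cbr3, a carbonyl reductase, rose from 10.2 ± 1.13 CPM (SD, n = 4) to 18.3 ± 2.50 with IL-1β, 20.3 ± 1.57 with palmitate and 30.7 ± 2.17 with both (edgeR adjusted p = 1.2e-07, 5.1e-10 and 1.55e-14). Cbr2 moved in opposite directions, with a log2 change of -0.38 with IL-1β (edgeR adjusted p = 0.0094) and 0.77 with palmitate (edgeR adjusted p = 3.2e-08). Akr1b3 and Akr1b8, aldo-keto reductases, rose with palmitate by 0.43 and 0.32 (edgeR adjusted p = 9.8e-08 and 3.9e-04), and transcripts of Cbr2, Akr1b3 and Akr1b8 share 26.9%, 67.4% and 23.7% of their length with other genes, so their counts are less certain. In the lipoxygenase and leukotriene branch 3 of 14 genes were tested, and Cysltr1, a leukotriene receptor, had a mean of 0.743 ± 0.294 CPM without either agent, beside 0.260 ± 0.0987 with palmitate. It passed the filter through the conditions without palmitate, so its level is a description with no test.

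The nuclear receptors that some prostanoids bind moved apart. Ppard, at 32.9 ± 1.84 CPM (SD, n = 4) without either agent, rose to 46.9 ± 2.27 with IL-1β, 52.8 ± 2.33 with palmitate and 75.7 ± 3.25 with both (edgeR adjusted p = 7.2e-09, 1.2e-12 and 4.9e-19). Pparg fell from 19.6 ± 0.251 CPM to 9.81 ± 0.732 with palmitate and 9.45 ± 1.12 with both (edgeR adjusted p = 1.1e-12 and 2.3e-13). The antisense genes beside Ptgs2 rose with palmitate as well, Ptgs2os by 0.92 (SE 0.13, edgeR adjusted p = 4.8e-07) and Ptgs2os2 by 0.63 (SE 0.063, edgeR adjusted p = 1.2e-09). Neither passed with IL-1β (edgeR adjusted p = 0.0505 and 0.439), although Ptgs2os did in 3 of 22 alternatives (without BSA replicate 4 or IL-1β replicate 5 or 6, adjusted p from 0.0197 to 0.196 over all 22). Ptgs2os lies opposite 227 exon bases of Ptgs2, and the counting was by strand. Of the 1409 bases of the Ptgs2os transcript, 414 lie opposite Ptgs2 exons. In BSA (control) Ptgs2os stood at 2.69 CPM and Ptgs2 at 120.9 CPM. Whether reads of Ptgs2 entered the Ptgs2os count was not tested.

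**Figure D4:**
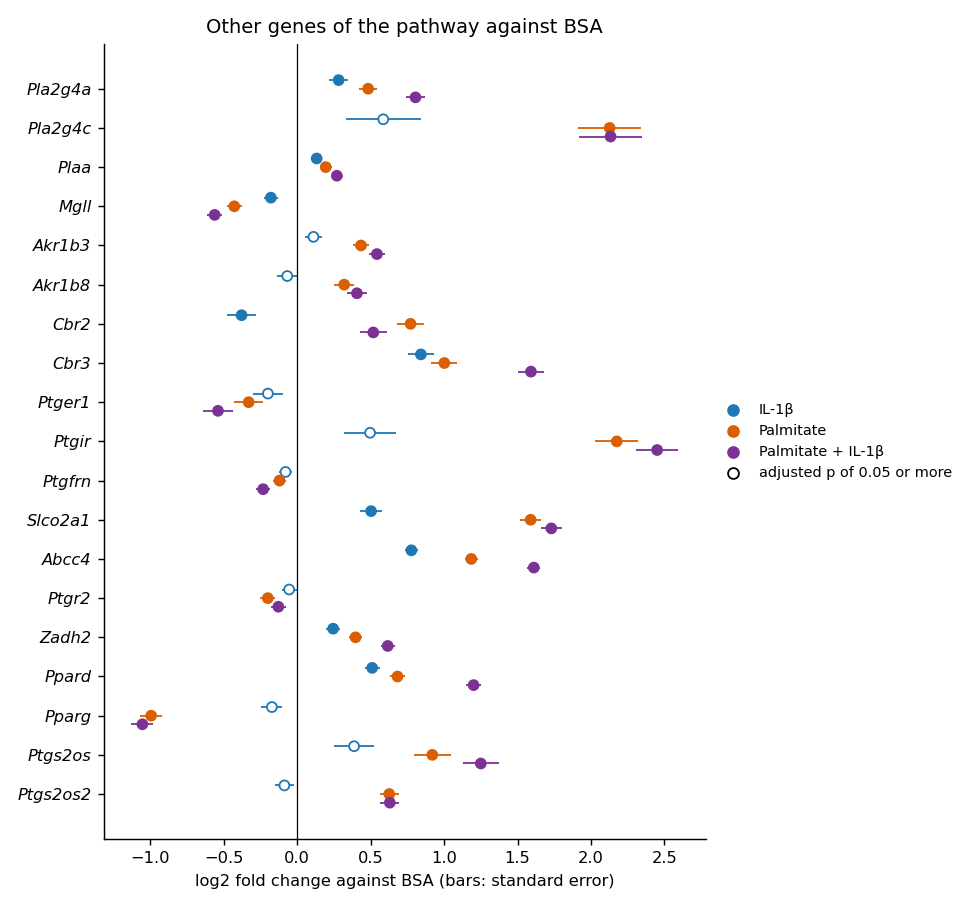
Log2 fold change against BSA (control) (x axis) of 19 other pathway genes (y axis) with IL-1β, palmitate and palmitate + IL-1β, with bars of 1 standard error, filled where the edgeR adjusted p was under 0.05. Pla2g4c, Ptgir and Slco2a1 lie at 2.13, 2.17 and 1.59 with palmitate, and Mgll and Pparg lie at -0.43 and -0.99.

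Among 11822 other genes of sufficient level, those whose log2 CPM followed Ptgs2 most closely over the 16 libraries were Bach1 (Pearson r = 0.990), Dusp18 (0.983), D16Ertd472e (0.980), Prdx6 (0.978) and Fbxo30 (0.978). In the same order of conditions as Ptgs2, Prdx6 stood at 113 CPM in BSA (control), 193.5 with IL-1β, 177.5 with palmitate and 329 with both. Bach1, the closest by r, moved less, at 92.4, 118, 107 and 142 CPM, since r does not measure the size of a change. Those that followed Ptges were Sbno2 (0.995), Susd6 (0.994), Cd44 (0.994), Ch25h (0.994) and Cyp7b1 (0.992), and Cd44 stood at 315, 423, 1004 and 1063 CPM. The lists share no gene. The points share the 4 conditions and the libraries, so the r values describe these data and have no p.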

How the data were processed

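Polyadenylated or total RNA of mGF was sequenced in 16 libraries (the paper's methods describe oligo(dT) priming, the labels a stranded total RNA kit). The authors trimmed reads with Trimmomatic 0.39, aligned them with STAR 2.7.10a to GRCm39 and deposited raw HTSeq 2.0.9 counts by strand per gene of GENCODE vM33, neither filtered nor normalized. Versions are from the submitters' processing notes. Summary rows that name no gene, 18.3 to 21.4% of a library, stayed out. Reads with several places were not counted to a gene.

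Counts were tested with edgeR 4.0.16 (R 4.3.3; glmQLFit, robust, and glmQLFTest) after TMM and filterByExpr (minimum count 10, total 15), with all 16 libraries in a fit of 4 condition means and Benjamini-Hochberg adjustment over 16306 genes. SE is the log2 fold change divided by the root of the F statistic. The 95% intervals are 1.96 SE to each side, a normal approximation somewhat narrower than the F test implies. The common biological coefficient of variation was 6.08%. The 95% intervals rest on the fitted spread between libraries, and the floor of 3 counts covers counting error only. Transcript lengths and positions are of GENCODE vM39, and shared sequence is from blastn 2.17.0. Ratios were log2 of counts plus 0.5, tested by exact two-sided permutation, and a ratio of Ptges to Hpgd got no test, since Hpgd had a median under 10 counts. Ratios of Ptger4 to Ptger2, 6 of the 12 in the adjustment, are not read. Scripts were tested on simulated data.

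Alternatives were DESeq2 1.42.0, RLE and upper-quartile scaling, no filter or 10 counts in every library, a fit of the compared libraries only, a pseudocount of 2, and leaving out each library. The members and lists were chosen with earlier results of these data known. Named genes were all members and, of each other list, up to 4 with the smallest adjusted p in palmitate or IL-1β against BSA (control) among those called, and for Ptgs2 and Ptges the 5 genes of highest r with an average log2 CPM of at least 1 (Hpgd, untested, got none). Of 10 members 9 matched the promoter table. Other-cell markers were 5 lists: endothelial markers summed to 2.25 to 3.32 CPM and smooth muscle and glial markers to 117 to 159 CPM.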

Additional observations from a re-analysis of the deposited data

Results flagged for a closer look

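The members gave no unusual library and no interaction past the threshold. Among the other pathway genes, the effect of IL-1β was smaller with palmitate than without it for Abcc4 (interaction -0.35 on the log2 scale, edgeR adjusted p = 3.1e-04) and Slco2a1 (-0.36, edgeR adjusted p = 0.0422, a call lost in 13 alternatives). Of 128 groups of 4 libraries examined, 4 held a library far from the other 3, and chance gives about 1 in 20. Palmitate replicate 9 had 50.7 CPM of Akr1b3, beside 43.96 to 44.6 in the others, and 41.6 CPM of Mgll, beside 36.0 to 36.9. Palmitate + IL-1β replicate 15 had 80.5 CPM of Ppard, beside 73.6 to 74.4. BSA replicate 3 had 2.36 CPM of Ptgir, beside 1.29 to 1.42. Causes were not tested.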

How the results depend on the processing

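No called member changed direction under any alternative run. The counts of members here are over 9 genes and include Ptger2, whose calls are not read because its BSA (control) counts were too low for a test. With IL-1β against BSA (control), 2 members passed in place of 4 with 10 counts in every library and with the compared libraries only, and 2 to 4 when each library was left out (2 without BSA replicate 1 or 4 or IL-1β replicate 7 or 8). Wherever 2 passed, the calls lost were those of Ptges3 and Ptger2. With 10 counts in every library Ptger2 was removed by the filter. Apart from Ptger2, the change was therefore the loss of Ptges3 alone. Adding IL-1β to palmitate, 2 passed with DESeq2 and 1 to 2 with each library left out. For the interaction it was 0 to 1 (1, Ptges, without palmitate + IL-1β replicate 14 or 15). Of the other pathway genes, adding IL-1β to palmitate raised or lowered 8 in place of 5 with no filter, 9 with the compared libraries only and 5 to 8 with each library left out (8 without IL-1β replicate 8). Their interaction count was 1 in place of 2 with upper-quartile scaling and with 10 counts in every library, and 1 to 2 with each library left out. Of all calls, upper-quartile scaling moved the share that was higher from 67.1% to 43.5% with IL-1β, from 53.1% to 37.2% with palmitate and from 52.4% to 38.7% with both, with medians over all genes of -0.05, -0.07 and -0.08. With no filter the share after adding IL-1β to palmitate went from 58.2% to 48.4%. The causes were not tested. Depth limits Ptger2 and Hpgd. No paired analysis was possible because the replicate numbers 1 to 16 are not shared between conditions.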
